A study of Mus musculus with 4 samples.

Results

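A set of 10 Wnt target and mesendoderm genes was followed in 3 mouse embryonic stem cell (ESC) lines made by nuclear transfer (NT) and in the induced pluripotent stem cell (iPSC) clone that donated their nuclei. The genes were chosen by name: Sp5, Axin2, T, Cdx1, Nkd1, Dkk1, Tcf7, Mixl1, Wnt3 and Fgf8. Of these, 8 had probe sets annotated to a single gene, 13 probe sets in all, out of 18193 genes so annotated, and T and Tcf7 were not analysed here. The lines NT-1, NT-2 and NT-3 are labelled as subclones 1, 2 and 3 and came from cloned blastocysts; whether they were derived separately is not stated. The parental clone, Adeno-1, is a single clone reprogrammed from tail-tip fibroblasts with adenoviral vectors. The fibroblasts' strain, sex and age, and the reprogramming genes, are not given in the labels. All 4 cultures were kept in serum and LIF over irradiated embryonic fibroblasts, and a brief replating step took feeder cells out before RNA isolation. Each culture gave 1 Affymetrix array, so n is 3 lines against 1 clone.

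In canonical Wnt signalling a secreted ligand binds a Frizzled receptor and an LRP coreceptor, the Axin, APC and GSK3 complex stops destroying beta-catenin, and beta-catenin turns on genes together with TCF/LEF factors. Among the first genes to respond are feedback inhibitors such as Axin2, Nkd1 and Dkk1 and transcription factors such as Sp5. In the mouse embryo Wnt3 is needed for the primitive streak, whose cells express T, Mixl1 and Fgf8 and go on to form mesoderm and endoderm, while in cultured mouse ESCs Wnt signalling also supports self-renewal.

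Sp5 was the member that differed most between the arrays, and its promoter is printed with that of Axin2, a general feedback target, so that the TCF/LEF letters in them can be seen. The 300-base windows are from RefSeq (GRCm38.p6) and run from 250 bases before the gene's start to 50 after it. Sp5 lies on the plus strand (chr2:70474673-70474972), as does Axin2 (chr11:108920099-108920398). Capitals mark the TCF/LEF core searched on both strands, CTTTG followed by 2 bases that are each A or T.
Sp5: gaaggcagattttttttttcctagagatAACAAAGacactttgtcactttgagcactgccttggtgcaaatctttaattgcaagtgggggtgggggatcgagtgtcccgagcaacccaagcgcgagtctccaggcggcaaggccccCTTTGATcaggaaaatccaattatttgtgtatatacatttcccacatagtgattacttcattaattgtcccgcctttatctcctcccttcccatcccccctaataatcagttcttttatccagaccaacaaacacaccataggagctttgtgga
Axin2: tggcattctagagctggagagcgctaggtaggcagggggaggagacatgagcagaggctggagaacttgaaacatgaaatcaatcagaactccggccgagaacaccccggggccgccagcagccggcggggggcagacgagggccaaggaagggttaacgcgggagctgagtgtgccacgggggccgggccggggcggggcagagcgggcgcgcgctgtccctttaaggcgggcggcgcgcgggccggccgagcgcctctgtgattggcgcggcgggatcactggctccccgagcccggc
The Sp5 window held 2 matches, CTTTGTT on the minus strand with its leftmost base at -222 and CTTTGAT on the plus strand at -104. The Axin2 window held 0. Of the 5 measured members with a window in the table, Dkk1 also held 2, Wnt3 held 1 and Nkd1 held 0, so that 3 had a match. Among all 32851 windows of this length, 16.9% had at least 1 match and 1.94% at least 2. The Axin2 window was 70% G and C and the Sp5 window 45%. A match describes letters and not binding.

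Values below are levels on a log2 intensity scale. The deposited numbers were turned into levels by setting each array's mean log2 intensity to an assumed 7, so a log2 difference scales with that choice, from 14.3% smaller with a mean of 6 to 12.3% larger with a mean of 7.86. The arrays carried no detection call. As a guide to the level of genes not expected in these cells, probe sets of 20 genes of other tissues, such as Alb and Myh6, had mean levels from 3.97 to 8.40. The mean levels of 6 members lay inside that range, Wnt3 lay below it, and Axin2, at 8.58, lay above it. Probe sets differ in brightness, so this range does not show that a member was silent. The same 20 genes had a highest minus lowest level over the 4 arrays of 0.14 in the median and 0.27 at most.

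Pluripotency markers were bright on every array. The 8 pluripotency markers, Pou5f1, Sox2 and Nanog among them, had a mean level of 11.93 in NT-1, 11.92 in NT-2 and 11.83 in NT-3, against 11.81 in the clone. The 8 measured fibroblast and feeder markers had a mean level of 8.06, 8.20 and 8.12 in the lines, against 8.06 in the clone, and 0 of 5 primitive endoderm markers reached 6.83, the median over all probe sets. The excess of the 3' over the 5' control probe set of Actb, which grows as RNA degrades, was 0.28, 0.42 and 0.29 in the lines and 0.22 in the clone. In a bulk sample, fewer cells expressing a gene and less RNA per cell cannot be told apart.

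No member passed limma's test when the lines were set against their parent clone. The members called, higher or lower, were 0 of 8, and the background over all 18193 genes was 0% in either direction (limma, smallest Benjamini-Hochberg adjusted p over all genes = 0.856). At an unadjusted p under 0.05, where 5.53% of all genes lay, there were 4 members, namely Fgf8, Axin2, Cdx1 and Wnt3. The same 4 were higher in every line than in the clone, and 0 were lower in every line. Over all genes 24.7% were higher and 26.7% lower in every line. The median log2 difference of the 8 members was 0.20, against -0.0031 over all genes. The members were named with earlier results of these arrays known, so these counts describe the members and do not support a shift of the set. A permutation of 4 arrays with 1 clone cannot give a p below 0.25.

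**Figure D1:**
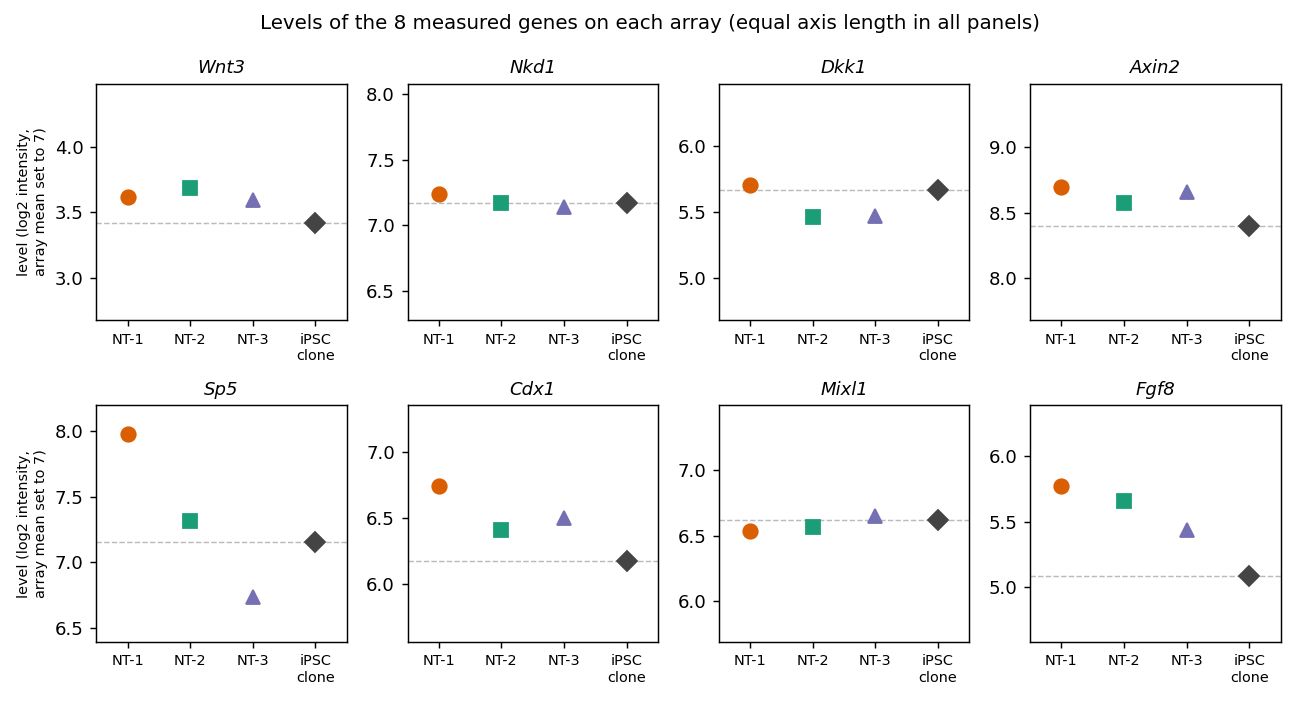
Level of each measured gene (y axis, log2 intensity with the array mean set to 7) on the arrays of NT-1, NT-2, NT-3 and the iPSC clone (x axis); each point is 1 array, the dashed line is the clone's level, and all panels span the same length. Sp5 was spread most, with 7.98 in NT-1 and 6.73 in NT-3, and Axin2, Cdx1, Wnt3 and Fgf8 had the clone as their lowest array.

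Among the ligands, Wnt3 starts the primitive streak in the mouse. Its single probe set, 1450763_x_at, had levels of 3.62 in NT-1, 3.68 in NT-2 and 3.60 in NT-3, against 3.42 in the clone. The 3 lines lay close together and above the clone. The difference between lines and clone was 0.21 ± 0.08 (SE; limma, Benjamini-Hochberg adjusted p = 0.856). The suffix x marks a probe set in which some probes also match other transcripts, so its signal cannot be assigned to Wnt3 alone.

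Fgf8, a fibroblast growth factor made in the primitive streak, had 5.77 in NT-1, 5.65 in NT-2 and 5.44 in NT-3, against 5.09 in the clone. All 3 lines lay above the clone, and the clone was 0.35 below the nearest line. The lines averaged 5.62 ± 0.17 (SD, n = 3), and their difference from the clone, 0.53 ± 0.14 (SE), was the largest of the 8 members. It did not pass over all genes (limma, Benjamini-Hochberg adjusted p = 0.856), and it kept its sign without any 1 line, with 0.46 to 0.63. Fgf8 lay under the median probe set on every array, and 231 of 18193 genes had a wider spread over the 4 arrays.

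The feedback inhibitors had differences of both signs. Axin2, a scaffold of the destruction complex and a general Wnt target, was read by 2 probe sets. The brighter, 1436845_at, had 8.70 in NT-1, 8.58 in NT-2 and 8.66 in NT-3, against 8.39 in the clone. Every line was above the clone there. The lines averaged 8.64 ± 0.06 (SD, n = 3), and the difference was 0.25 ± 0.09 (SE; limma, Benjamini-Hochberg adjusted p = 0.856). The dimmer, 1421341_at, ran the other way, with 6.140, 5.781 and 6.002 in NT-1, NT-2 and NT-3, against 6.218 in the clone. Every line was below the clone there, by 0.24 ± 0.15 on average (SE; limma over all probe sets, Benjamini-Hochberg adjusted p = 0.870). The mean of both probe sets left a difference of 0.0035, so the direction for Axin2 rests on which probe set is read.

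Nkd1 binds Dishevelled and dampens Wnt signals. Its brightest of 4 probe sets, 1429507_at, had 7.24 in NT-1, 7.17 in NT-2 and 7.14 in NT-3, against 7.17 in the clone. Lines and clone overlapped, and 85.4% of all genes had a wider spread over the arrays. Its difference was 0.02 ± 0.08 (SE; limma, Benjamini-Hochberg adjusted p = 0.987). Of the other probe sets, 1417278_a_at had 5.04, 5.21 and 5.48 in NT-1, NT-2 and NT-3, against 5.07 in the clone, and was highest in NT-3. Both 1440446_at and 1429506_at were lowest in NT-3, at 6.20 and 4.93, against 6.23 and 5.19 in the clone. Nkd1 lies on chromosome 8, whose 932 genes had a median of 0.18 in NT-3 minus the other arrays, against -0.01 for the other chromosomes; for Nkd1 itself this difference was -0.05 by its brightest probe set.

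Dkk1 is a secreted antagonist that binds LRP coreceptors. Its brighter probe set had 5.71 in NT-1, 5.46 in NT-2 and 5.47 in NT-3, against 5.67 in the clone. NT-2 and NT-3 were low and NT-1 was level with the clone. The difference was -0.12 ± 0.12 (SE; limma, Benjamini-Hochberg adjusted p = 0.906), and it was -0.20 without NT-1, -0.08 without NT-2 and -0.05 with the mean of both probe sets. The second probe set, 1458232_at, stood at 4.07, 4.07 and 4.08 in the lines, against 4.05 in the clone.

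**Figure D2:**
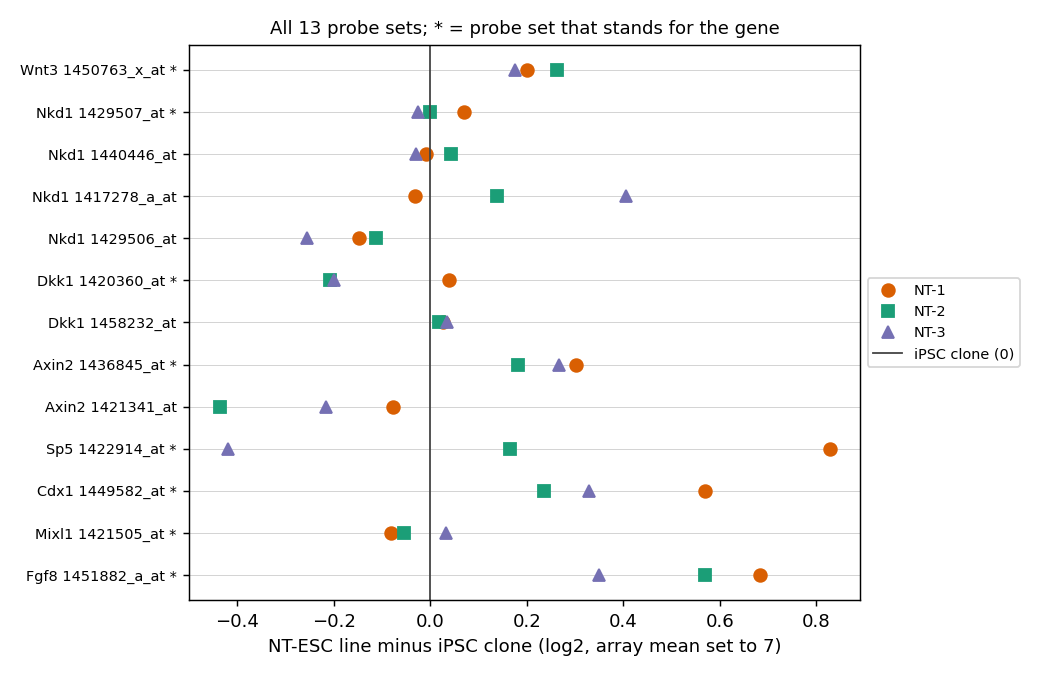
Difference of each NT-ESC line from the iPSC clone (x axis, log2) for all 13 probe sets of the 8 genes (y axis); each marker is 1 line and the vertical line at 0 is the clone. The 2 probe sets of Axin2 lie on opposite sides of 0, and Sp5 shows the widest gap between lines.

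Of the transcription factors, Sp5 is a zinc-finger protein of the Sp family and an early Wnt target. Its probe set, 1422914_at, had 7.98 in NT-1, 7.32 in NT-2 and 6.73 in NT-3, against 7.15 in the clone. NT-1 was the highest array and NT-3 the lowest, with NT-2 and the clone between them. NT-1 exceeded NT-2 by 0.66 and NT-3 by 1.25 on the log2 scale, a 2.37-fold gap between sister lines. NT-1 exceeded the clone by 0.83, or 1.77-fold, and NT-2 exceeded it by 0.17, while NT-3 lay below it by 0.42.

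Because the lines lay on both sides of the clone, the mean difference of Sp5 between lines and clone was only 0.19 ± 0.44 (SE; limma, Benjamini-Hochberg adjusted p = 0.963). It turned to -0.13 without NT-1 and was 0.50 without NT-3. Set against the other 3 arrays, NT-1 was higher by 0.91, a contrast for which Sp5 was chosen and which is given as a description with no test. Against its 2 sister lines alone the gap was 0.95. In the same contrast 0 of 18193 genes were called, 0% in either direction, and 504 had an unadjusted p under 0.05 by limma, 2.77% of genes.

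Sp5 in NT-3 was 0.75 ± 0.28 (SE) lower than the mean of the other 3 arrays and did not pass (limma, Benjamini-Hochberg adjusted p = 0.362). In that contrast 0.159% of genes were called higher and 0.302% lower, and 0 of the 8 members. Without NT-1 the difference was -0.50, since the mean of the others then loses its highest array. NT-1 is also the array for which Sp5 was chosen, so the test of Sp5 in NT-3 shares that value and is not independent of the choice. Over all genes 29 had a wider spread over the 4 arrays than Sp5, or 0.159%. Among the 11747 genes with a mean at or above the median level, 27 did. Since Sp5 was chosen for its level in NT-1, the top of this spread, these ranks restate that choice and are a description. The mean of the fibroblast and feeder markers was highest in NT-2, the highest array for 5 of the 8. Sp5 was highest in NT-1, and the Actb excess was largest in NT-2. Whether feeder cells or RNA quality bear on the levels of Sp5 was not tested.

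**Figure D3:**
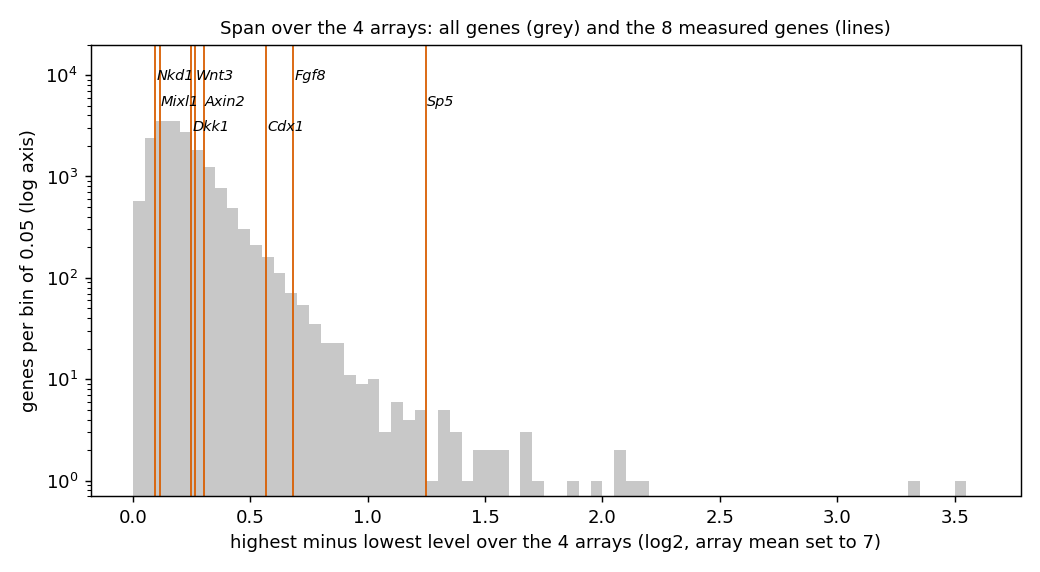
Number of genes (y axis, log scale) by the highest minus the lowest level over the 4 arrays (x axis, log2, bins of 0.05), with the 8 measured genes as vertical lines. Sp5, at 1.25, lies in the tail that 29 of 18193 genes pass, and Nkd1 and Mixl1 lie under the median gene's 0.18. Sp5 was chosen for its difference in NT-1, so its place in the tail is a description.

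Cdx1 is a caudal-type homeobox factor that patterns the trunk and is turned on by Wnt in the mouse embryo. It had 6.74 in NT-1, 6.41 in NT-2 and 6.50 in NT-3, against 6.17 in the clone. All lines lay above the clone, with NT-1 the highest. The lines averaged 6.55 ± 0.17 (SD, n = 3), and the difference was 0.38 ± 0.14 (SE; limma, Benjamini-Hochberg adjusted p = 0.856). It was 0.28 to 0.45 without any 1 line. On every array Cdx1 was below the median probe set. Mixl1, a homeobox gene of the primitive streak, had 6.54 in NT-1, 6.56 in NT-2 and 6.65 in NT-3, against 6.62 in the clone. Its groups overlapped, and the difference was -0.03 ± 0.09 (SE; limma, Benjamini-Hochberg adjusted p = 0.966).

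Counted by line, NT-1 was the highest array for 6 of 8 members, while 20.9% of all genes were highest there. The exceptions were Mixl1, which was lowest in NT-1, and Wnt3, which was highest in NT-2. For Axin2, Nkd1 and Dkk1 the brightest probe set put NT-1 above the next array by only 0.04, 0.07 and 0.04. None of the other probe sets of these genes had NT-1 highest, so that count depends on the probe set read. NT-2 was the highest for 1 member and NT-3 for 1, against 23.6% and 25.7% of all genes. The median difference from the clone over the 8 members was 0.25 for NT-1, 0.17 for NT-2 and 0.10 for NT-3, where the medians over all genes were -0.0037, 0.0050 and -0.0094; these share the clone's array, and values of 1 array against 1 carry no test. Relative to the clone, Sp5 and Fgf8 were at least 1.5-fold higher in NT-1, 2 of 8 members, against 0.264% of all genes at any level. There 0 members were lower, against 0.104% of genes. The high Sp5 of NT-1 was known when the members were chosen, so this count is a description and does not support an excess of the set. In NT-2 there were 0 members past 1.5-fold in either direction, where 0.0824% of genes were higher and 0.044% lower, and in NT-3 also 0, where 0.731% were higher and 0.55% lower. Just inside that limit of 0.58 log2 was Fgf8 in NT-1 at 0.68, and just outside were Fgf8 in NT-2 at 0.57 and Cdx1 in NT-1 at 0.57. With the assumed mean of 7.86, Cdx1 in NT-1 and Fgf8 in NT-2 also passed.

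Other genes of the pathway were not called either. Of 20 ligands and export factors, 21 receptors and R-spondin pathway genes, 17 measured inhibitors and 27 intracellular components, 0 were called between lines and clone, as over all genes. The medians of these lists were -0.03, -0.05, -0.05 and 0.06. Porcn, the acyltransferase that makes Wnt ligands secretable, differed by 0.24 ± 0.09 (SE). Of the receptors, Fzd5 differed by 0.34 ± 0.17. Rspo3, an R-spondin that strengthens Wnt signals, differed by -0.37 ± 0.11, while its relative Rspo4 differed by 0.29 ± 0.09. Sfrp2, a secreted Wnt-binding protein, differed by -0.30 ± 0.08. Lef1, a TCF/LEF factor that is itself a Wnt target, differed by -0.53 ± 0.24, with 9.29 in NT-1, 9.35 in NT-2 and 8.76 in NT-3, against 9.66 in the clone. Every line was below the clone for Lef1, opposite to Fgf8 and Cdx1. Ctnnb1, which encodes beta-catenin, had 12.65, 12.57 and 12.49 in the lines, against 12.50 in the clone.

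The 22 other Wnt targets had a median of -0.10 between lines and clone, with 1 higher and 10 lower in every line, where 24.7% and 26.7% of all genes were, and 0 called. Cdx2, a homeobox relative of Cdx1, differed by -0.31 ± 0.09 (SE), while Bmp4, a ligand of the BMP pathway, differed by 0.36 ± 0.14. Mycn, a Myc family gene, differed by -0.46 ± 0.25. In NT-3 against the other arrays, 1 of the 22 was called lower, against 0.302% of all genes. It was Jun, an AP-1 transcription factor, which fell by 0.61 (limma, SE 0.09, Benjamini-Hochberg adjusted p = 0.0431). Leaving out NT-1, NT-2 or the clone, taking the deposited values as they are or fitting all probe sets each ended that call, and the adjusted p over 10 alternatives ran from 0.0311 to 0.597. The difference itself was -0.58 without NT-1, -0.63 without NT-2 or the clone and -0.61 over all probe sets. Ccnd1, a cyclin, differed by -0.48 there and did not pass (limma, Benjamini-Hochberg adjusted p = 0.0699).

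The 26 other mesendoderm genes had a median of -0.02 between lines and clone, with 2 higher and 10 lower in every line, where 24.7% and 26.7% of all genes were. In that contrast and in each line against the other arrays 0 of the 26 were called; for NT-3, where alone any gene was called, 0.159% of all genes were called higher and 0.302% lower. Eomes, a T-box factor of the streak, had 7.99 in NT-1, 7.83 in NT-2 and 8.38 in NT-3, against 7.65 in the clone. Its highest line was NT-3, where Sp5 was lowest. Nodal, the streak-inducing ligand, was likewise highest in NT-3, with 9.62, 9.80 and 10.07 in NT-1, NT-2 and NT-3, against 9.79 in the clone. Lefty2, a Nodal antagonist, was lowest in NT-3, with 7.47, 7.62 and 7.20 in the lines, against 7.63 in the clone. Over the list, NT-3 was the highest array for 10 of the 26 genes, against 25.7% of all genes. It was the lowest for 8, and the share of all genes lowest in NT-3 was not counted. NT-1 was the highest array for 0 of the 26 genes and the lowest for 12, where 20.9% and 23.4% of all genes were.

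The FGF list, 14 ligands, receptors and response genes, touches Fgf8. Its median between lines and clone was -0.05 with 0 called. The largest differences were those of 2 FGF receptors, 0.37 ± 0.26 (SE) for Fgfr1 and -0.30 ± 0.10 for Fgfr2. Etv5, an ETS factor that responds to FGF, had 11.55 in NT-1, 11.23 in NT-2 and 11.33 in NT-3, against 11.15 in the clone. Like Fgf8, it was highest in NT-1 and lowest in the clone, but its relative Etv4 was highest in NT-3, with 10.80, 10.68 and 11.04 in the lines, against 10.68 in the clone. Of the 14 genes, NT-3 was the highest array for 6 and NT-1 for 5, where 25.7% and 20.9% of all genes were. Fgf17, a close relative of Fgf8, had 7.783, 7.660 and 6.995 in NT-1, NT-2 and NT-3, against 7.778 in the clone. It fell in NT-3 by 0.75 relative to the other arrays (limma, SE 0.09, Benjamini-Hochberg adjusted p = 0.0277). In that contrast 1 of the 14 was called lower and 0 higher, against 0.302% and 0.159% of all genes. The alternatives that ended the Jun call ended this one too, and its adjusted p over them and the other alternatives ran from 0.0175 to 0.597. Its difference was -0.72 to -0.79 with 1 array left out.

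**Figure D4:**
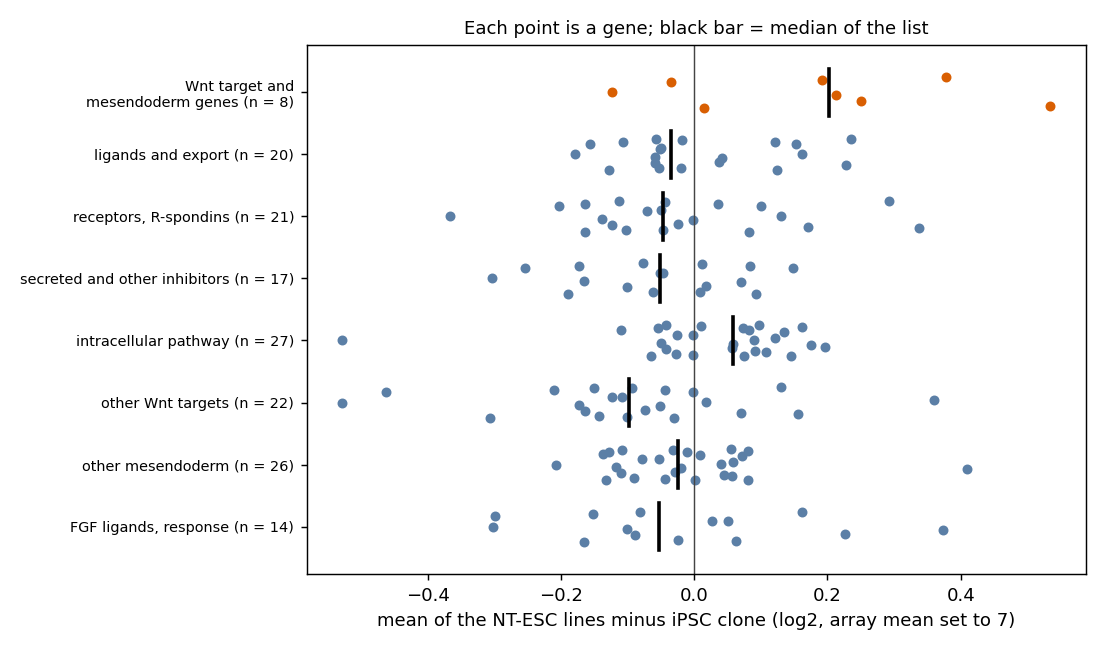
Mean of the 3 NT-ESC lines minus the iPSC clone (x axis, log2) for each gene (points) of the 8 measured Wnt target and mesendoderm genes and of 7 related lists (y axis); black bars are medians. The median of the 8 genes is 0.20 and those of the other lists lie between -0.10 and 0.06; 0 of the genes shown passed limma's test.

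Genes with the nearest pattern over the 4 arrays were taken, for the members whose levels spanned at least 0.5 log2, as those with the smallest root mean square difference between levels centred on each gene's own mean. For Sp5 the nearest of 11746 genes was Lama1, which encodes a laminin chain of basement membranes, at 0.09 log2. Lama1 had 9.58 in NT-1, 9.14 in NT-2 and 8.41 in NT-3, against 8.94 in the clone, in the same order as Sp5. Fgfbp1, an FGF-binding protein, followed at 0.13 and Gbp2, an interferon-inducible GTPase, at 0.14. For Cdx1 the nearest was Bmp4, at 0.0089, with 9.72, 9.40 and 9.50 in the lines, against 9.18 in the clone; Phf6 and Ccnd3 came next. For Fgf8 they were Bhlhe40, Nuak1 and Smad6, an inhibitor of BMP signalling, at 0.02 to 0.04. With 4 arrays and 11746 candidates, near patterns can be found for many genes, and the likeness is a description.

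**Figure D5:**
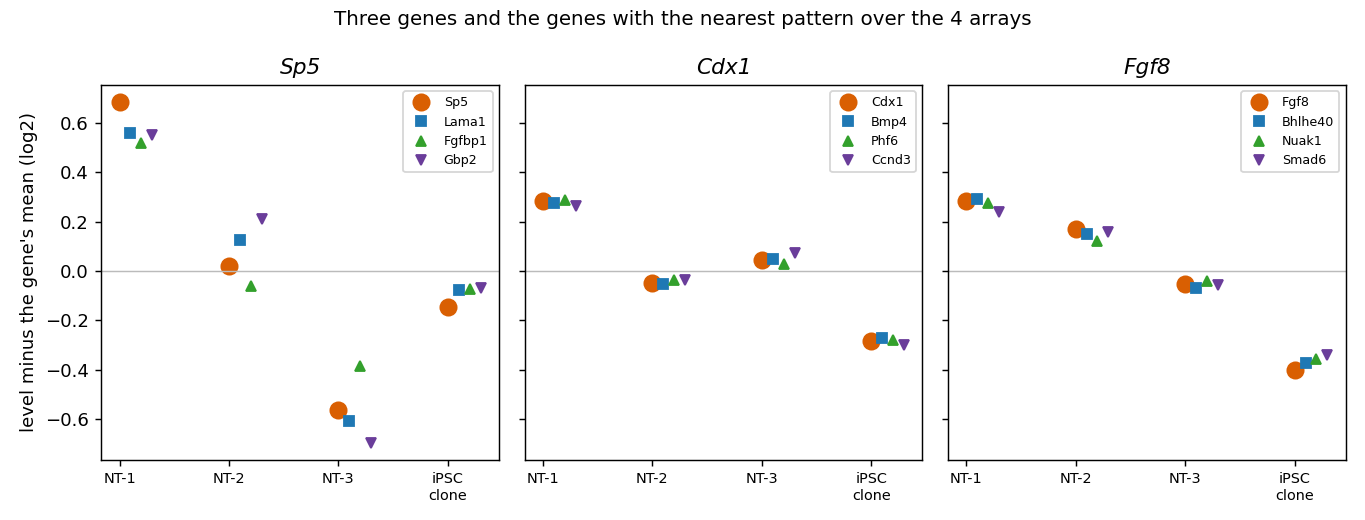
Level minus the gene's own mean over the 4 arrays (y axis, log2) for Sp5, Cdx1 and Fgf8 (large points) and the 3 genes nearest to each in pattern (small markers, set slightly to the right). Sp5 and Lama1 both had NT-1 highest and NT-3 lowest, and Cdx1 and Fgf8 had the clone lowest.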

How the data were processed

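RNA of 3 NT-ESC lines and 1 iPSC clone was measured on 4 arrays. The deposited log2 values have a mean of 1 on each array once 2 is raised to them, the form of log intensities divided by the array's mean log intensity and then logged again; per the labels' protocols the RNA was amplified into biotinylated cRNA, and the array software is not given in the sources used here. Each value was turned into a level by multiplying the ratio by 7. Of 45101 probe sets, 64 were controls and 34945 had 1 gene in the platform annotation, 932 had several; the probe set with the highest mean level stood for a gene. All 18193 genes were fitted in R 4.3.3 with the lmFit and eBayes functions of limma 3.58.1 (tests two-sided, threshold 0.05 after Benjamini-Hochberg adjustment), for the lines against the clone, where the spread comes from the 3 lines, and for each line against the other 3 arrays, the lone array being assumed to vary like the rest; members are described there where the line lay at least 0.3 outside the range of the others. P-values thus measure the spread between these arrays, which may be technical. The fit was tested on simulated data. Named were all members, up to 4 genes per list by size, and the 3 genes nearest in pattern over the contrasts. Ctnnb1 was added after its values were seen, and Etv4 was also named outside this rule. The members and lists were chosen with earlier results of these data known. Alternatives were the assumed mean, the deposited values as they are, quantile normalization, a filter on dim genes and leaving out each line. The mean of a gene's probe sets and a fit over all probe sets were also run. Leaving out the clone was added after seeing the data. Signal over background cannot be given, and the number of arrays limits the precision.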

Additional observations from a re-analysis of the deposited data

How the results depend on the processing

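The members' differences between lines and clone, and that of Sp5 in NT-3, kept their direction and their side of the threshold under every alternative run (the filter on dim genes left only Sp5, Axin2 and Nkd1), except that, between lines and clone, leaving out 1 line gave -0.13 to 0.50 for Sp5 and -0.012 to 0.035 for Nkd1, both below 0 without NT-1. The difference of Sp5 in NT-1, which has no test, kept its direction. Reading a dimmer probe set alone was not among these alternatives. It reversed the sign between lines and clone for Axin2, at -0.24 with 1421341_at, and for Dkk1, at 0.03 with 1458232_at. For Nkd1 the dimmer sets gave 0.0015, 0.17 and -0.17. The counts of 0 genes called for the lines against the clone, for NT-1 and for NT-2 stayed at 0 under every alternative (limma; 1006, 504 and 423 genes at an unadjusted p under 0.05, in that order). For NT-3 the 84 calls became 15 with the deposited values as they are, 127 with quantile normalization, 168 with the mean of probe sets, 47 over all probe sets, and 0 when NT-1, NT-2 or the clone was left out, where 1 residual degree of freedom was left. Genes at least 1.5-fold apart from the clone numbered 56 in NT-1, 17 in NT-2 and 212 in NT-3 where the brighter array reached the median level; with an assumed mean of 6 they were 27, 7 and 131, and with 7.86 they were 100, 43 and 319, since the fold itself scales with that mean. Apart from these, the causes of the shifts were not tested. No paired analysis was possible because all lines share a single parental clone, which gave 1 array. The low level of Wnt3, Dkk1 and Fgf8 limits what their differences can show.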
